A study of Mus musculus with 2 samples.

Results

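The replication-dependent histone genes are the clustered genes that encode the bulk of the histone proteins. They were taken as the genes whose mouse symbol begins with Hist1h, Hist2h, Hist3h or Hist4h and that have a protein-coding transcript in the GENCODE M21 annotation of mm10. There were 67 of them among 55536 annotated genes, of which 22028 were protein coding. By histone type, 6 encode H1, 18 H2a, 18 H2b, 12 H3 and 13 H4. By cluster, 54 belong to Hist1 on chromosome 13, 10 to Hist2 on chromosome 3, 2 to Hist3 on chromosome 11, and 1 (Hist4h4) to Hist4 on chromosome 6.

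The study measured RNA of the chromatin fraction of macrophages grown from the bone marrow of C57BL/6J mice, sequenced as total RNA after removal of ribosomal RNA. All cells received lipid A, the lipid anchor of bacterial lipopolysaccharide, which is sensed by Toll-like receptor 4, at 100 ng/ml for 12 h, then 12 h without it, then 100 ng/ml again for 75 min. This 1 condition was deposited as 2 libraries, biological replicates 1 and 2, which carry the same donor entry. Age and sex were not collected, and no untreated or once-treated group was analysed here. The values are therefore levels with the spread between 2 libraries, with no comparison of treatments and no test. The labels name biological replicates but not separate cultures or animals, so the spread may be partly technical.

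Nucleosomes wind DNA around a core of H2A, H2B, H3 and H4, and H1 binds the DNA that links them. Cells that copy their DNA make most of these proteins from the replication-dependent genes, which lie in clusters, lack introns and are transcribed mainly in S phase. Their messenger RNAs end in a conserved stem-loop that the protein Slbp binds, cut without a poly(A) tail with the help of the U7 small nuclear RNA. Replication-independent genes such as H3f3b and H2afz make variant histones outside S phase too, with ordinary polyadenylated messages. Macrophages grown from marrow are cells that can still divide, and their division is known to slow after activation.

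The stem-loop is shown first because it divides the annotated transcripts of these genes into classes with different counts and levels. It was searched for as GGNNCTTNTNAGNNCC on the transcript strand, with the 6 bases on each side of a 4-base loop required to pair. A match was found in 46 of the 67 genes. Over all protein-coding transcripts of the annotation, 65 of 58797 (0.111%) had one, and of the 55 genes with a match 9 were not among the 67. The most common forms are printed as DNA, 5′ to 3′, from the M21 transcripts, with the paired stem in capitals and the loop in lower case.

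Form of 26 genes (10 H2a, 8 H2b, 5 H3, 3 H1): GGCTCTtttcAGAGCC

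Form of 7 genes (H4): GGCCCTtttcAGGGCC

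Form of 6 genes (3 H3, 2 H2b, 1 H1): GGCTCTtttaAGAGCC

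Form of 2 genes (H4): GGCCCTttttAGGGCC

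Form of 2 genes (H4, Hist1h4b and Hist1h4j): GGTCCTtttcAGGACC

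Form of 1 gene (H2a, Hist2h2ac): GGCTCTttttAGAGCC

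None of the H4 genes with a match shared a stem with a gene of another type.  The remaining forms each occurred in 1 gene, Hist1h4a and Hist1h3g. Of the 21 genes with no match, 8 encode H2b and 7 H2a. Their annotated transcripts had a median length of 405 bases, beside 539 bases over all 67 genes. Only annotated transcripts were searched, so a stem-loop past an annotated end would be missed, and no match does not mean that the gene lacks one.

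As a group the histone genes were low in the chromatin RNA. Only 9 of the 67 reached 1 TPM in both libraries, against 40.1% of all protein-coding genes. TPM is a level corrected for transcript length and scaled to a fixed sum per library, so it can be compared between genes. In replicate 1 alone 21 genes reached that level, against 42.2% of protein-coding genes, and in replicate 2 alone 11, against 41.5%. When TPM was rescaled to a fixed sum over protein-coding genes only, 27 reached it in both libraries, against 48.2% of protein-coding genes. The median of the mean level was 0.375 ± 0.0354 TPM (SD between the 2 library medians), beside 0.29 TPM for all protein-coding genes and 9.37 TPM for those at 1 TPM in both libraries. By a second, alignment-free quantification of the same reads it was 0.465 TPM, beside 1.42 TPM for all protein-coding genes. The 67 genes together held 609.78 of 18388793 expected counts in replicate 1, or 0.00332% (95% Wilson interval 0.00306 to 0.00359%). In replicate 2 they held 469.33 of 17640464, or 0.00266% (0.00243 to 0.00291%). The intervals do not overlap, and without molecular identifiers they account for counting error alone. Fewer cells with this RNA and less of it per cell cannot be told apart in bulk samples. For scale, H3f3b, which makes the replication-independent variant H3.3, alone had 3.71 and 3.91 times the counts of all 67 genes. Mki67, a gene of dividing cells with a long primary transcript, had 19.1 and 30.3 times their counts. These count ratios are not corrected for transcript length, and in TPM the gaps were smaller. The 67 genes summed to 68.21 and 57.5 TPM, H3f3b had 110.61 and 83.34 TPM and Mki67 had 69.25 and 94.55 TPM.

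Low counts stood behind most of these levels. The median gene had a mean of 2.67 counts, and 13 genes had 10 or more counts in both libraries, against 46.9% of protein-coding genes. There were 13 genes at 0 in both libraries, against 34.6% of protein-coding genes, and 8 of them were also at 0 in both libraries by the second quantification. A further 11 genes were at 0 in replicate 1 alone, with at most 6 counts in replicate 2, and 9 were at 0 in replicate 2 alone, with at most 12.9 counts in replicate 1. Because histone transcripts are short, a level of 1 TPM was made by as few as 1.38 counts in Hist1h4k and by as many as 123 counts in Hist1h1d. A gene at 0 counts was compatible with up to 3 counts, which in replicate 1 is 0.112 TPM for Hist2h3c1 and 1.22 TPM for Hist1h4f. Differences below such limits were not detectable at this depth.

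**Figure D1:**
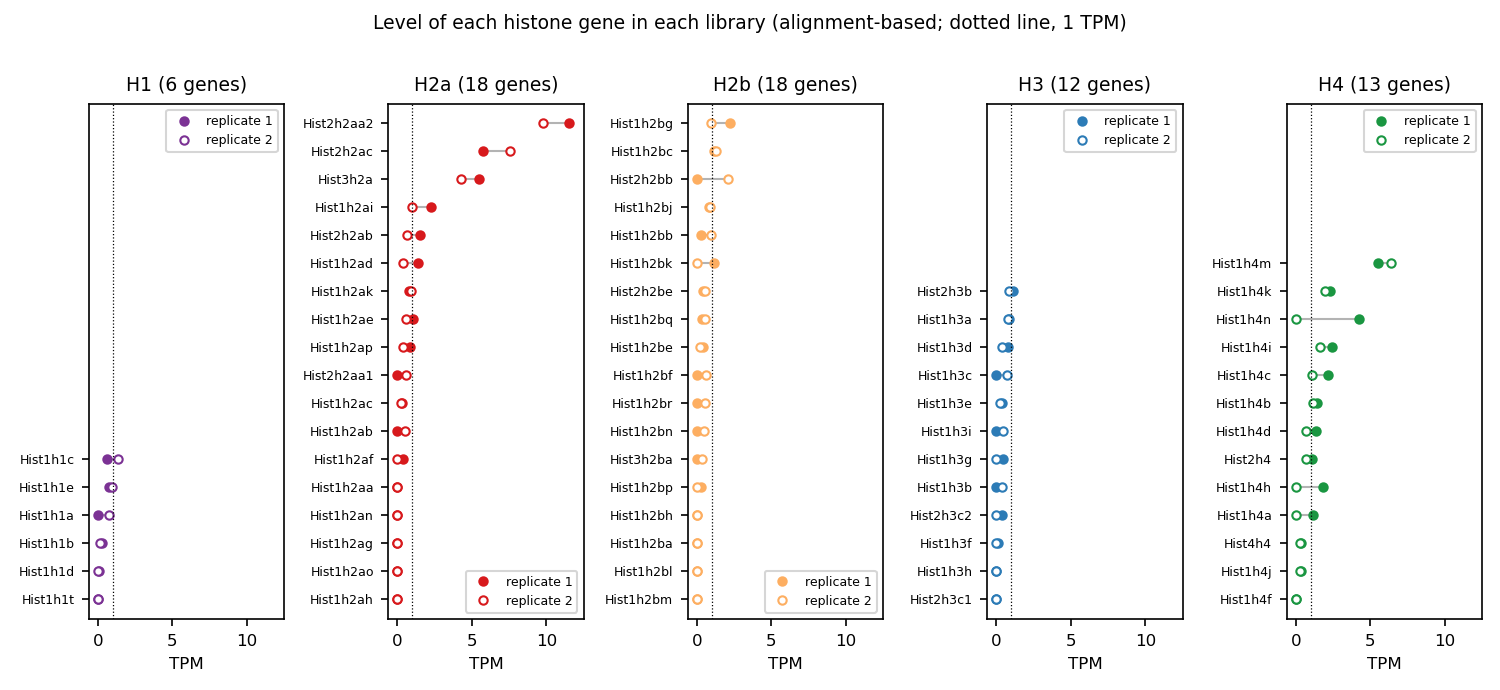
Level of each of the 67 histone genes in TPM (x axis, linear), 1 panel per histone type, with replicate 1 as filled and replicate 2 as open circles joined by a line, and a dotted line at 1 TPM. Most genes lie left of the dotted line, H2a and H4 hold the highest levels, and no gene of H1 or H3 is right of it in both libraries.

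Core histone H2a genes held the highest levels. Summed over the 18 genes, H2a reached 31.25 and 26.85 TPM in replicates 1 and 2, from 300.63 and 231.22 counts, which was 49.3% ± 0.0250 (SD, n = 2) of all histone counts. Of its genes, 3 were at 1 TPM or more in both libraries. By the second quantification H2a held a smaller share, 400.56 of 1221.48 and 285.79 of 1055.07 histone counts. H2b had 322.87 and 277.52 there.

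Hist2h2aa2 (chr3:96239749-96240276, minus strand, 1 exon) was the highest of all 67, with 11.53 TPM in replicate 1 and 9.80 TPM in replicate 2. These levels came from 53.64 and 44.01 counts. Its sequence is repeated in Hist2h2aa1 (chr3:96245497-96246082), which holds every 31-base stretch of the Hist2h2aa2 transcript and had 0 and 3.2 counts. Reads of this pair cannot be assigned to either copy with certainty. The deposited posterior SD, the program's own uncertainty of the assignment, was 13.5% of the mean count of Hist2h2aa2. Summed, the pair had 53.64 and 47.21 counts. The whole transcript also lies opposite the annotated antisense gene Gm20632, which had 63.34 and 57.88 counts. No source used here states whether counting used the strand, so reads of this gene and of its antisense partner cannot be told apart.

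Hist2h2ac (chr3:96220361-96220880, minus strand), with the only stem-loop of its form, had 5.75 and 7.55 TPM from 26 and 33 counts. It overlaps no annotated gene other than a microRNA entry, and its count had a posterior SD of 0. It was the highest histone gene with neither such an overlap nor a posterior SD above 0, though 43.3% of its 31-base stretches are also in Hist2h2aa2.

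Hist3h2a (chr11:58954685-58956830, plus strand) had 5.47 and 4.27 TPM. By counts it came first among the 67, with 177 and 126, and Hist3, its cluster, held 29.0% and 27.3% of all histone counts. By the second quantification the cluster held a smaller share, 220.33 of 1221.48 and 162.02 of 1055.07 counts. The annotated transcript of Hist3h2a has 2146 bases, of which 1643 follow the stem-loop, and it lies wholly within Trim17 on the same strand. Trim17, a gene of the TRIM family of ubiquitin ligases, had 82 and 74 counts and also has a stem-loop match. Hist1h2ai followed with 2.26 and 0.97 TPM, made of 5.64 and 2.42 counts. The testis gene Hist1h2aa was at 0 in both libraries by both quantifications, along with Hist1h2ag and Hist1h2an.

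The H4 genes were next, and their median level was the highest of the 5 types, at 1.03 TPM against 0.453 for H2a, 0.323 for H2b, 0.285 for H1 and 0.225 for H3. At 1 TPM in both libraries were 5 of the 13. Summed, H4 reached 24.16 and 14.19 TPM from 151.93 and 83 counts. Hist1h4m (chr13:21811746-21812147) led with 5.50 and 6.38 TPM, from 14.46 and 16.77 counts with a posterior SD of 20.2%. It shares 91.7% of its 31-base stretches with Hist1h4n, which had 4.22 TPM in replicate 1 and 0 in replicate 2. As a pair they had 27.36 and 16.77 counts, a sum that was lower in replicate 2 while Hist1h4m alone was higher. Hist1h4k had 2.30 and 1.95 TPM from 3.17 and 2.79 counts. Hist1h4i had 2.44 and 1.62 TPM from 19.64 and 12.23 counts, and the lowest, Hist1h4f, was at 0 in both. By the second quantification the median levels were 0.947 TPM for H4, 0.460 for H1, 0.460 for H2b, 0.346 for H2a and 0.130 for H3.

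Among the 18 H2b genes only Hist1h2bc was at 1 TPM in both libraries, with 1.15 and 1.30 TPM from 17.77 and 18.44 counts. Hist1h2bg had 2.24 TPM in replicate 1 and 0.98 TPM in replicate 2, on either side of that level. Hist2h2bb had 0 in replicate 1 and 2.06 TPM in replicate 2, the latter from 4.80 counts, and it lies opposite the antisense gene Gm20628, which had 15.5 and 22.36 counts. Hist1h2bj had 0.84 and 0.85 TPM from 3 counts in each library. The testis gene Hist1h2ba was at 0 in both. Summed, H2b reached 7.14 and 9.45 TPM from 81 and 70.92 counts.

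The H3 and H1 genes were the lowest, and none was at 1 TPM in both libraries. Summed, the 12 H3 genes reached 4.02 and 3.85 TPM from 34.22 and 23.31 counts. Their highest was Hist2h3b with 1.09 and 0.85 TPM, followed by Hist1h3a with 0.84 and 0.77, Hist1h3d with 0.77 and 0.41, and Hist1h3c with 0 and 0.75. Hist1h3h and Hist2h3c1 were at 0 in both. The 6 H1 genes, whose product binds linker DNA, reached 1.64 and 3.16 TPM from 42 and 60.88 counts. Hist1h1c had 0.63 and 1.32 TPM, Hist1h1e 0.73 and 0.91, Hist1h1a 0 and 0.77, and Hist1h1b 0.24 and 0.13. The testis gene Hist1h1t was at 0 in both. The order of the 5 types by summed TPM, H2a, H4, H2b, H3 and H1, was the same in both libraries. The ranges of neighbouring types in it did not overlap. By the second quantification H1 summed above H3 in replicate 2, and the H1 median was above those of H2a and H3. Such sums also depend on the number of genes, which was 6 to 18 per type. The H2a sum includes Hist2h2aa2 (11.53 and 9.80 TPM) and Hist3h2a (5.47 and 4.27 TPM), which overlap other genes.

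By cluster, the 54 genes of Hist1 had 278.92 and 205.01 counts, the 10 of Hist2 had 137.86 and 125.32, the pair of Hist3 had 177 and 128, and Hist4h4 had 16 and 11. Per gene the Hist2 cluster was higher, with a median of the mean level of 0.935 TPM beside 0.323 TPM for Hist1. The medians of replicates 1 and 2 were 0.765 and 0.66 TPM for Hist2 and 0.335 and 0.37 TPM for Hist1. By the second quantification the median of the mean level was 0.637 TPM for Hist2 and 0.443 TPM for Hist1. Several Hist2 genes overlap other annotated genes.

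Counts were unevenly spread over the classes of transcript end. In 23 genes the annotated end was at most 100 bases past the stem-loop, between 3 and 74 bases with a median of 33. In another 23 it was 108 to 4884 bases past it with a median of 752, the longest being Hist1h1d, and these are called extended. The extended genes held 400.92 and 276.57 of the counts, the short ones 143.54 and 124.87, and those with no stem-loop found 65.32 and 67.89. Per length the order was the other way for the first pair of classes, with summed levels of 36.25 and 31.14 TPM for the short and 21.49 and 14.26 TPM for the extended genes. Without Hist3h2a, which lies within Trim17, the extended genes held 223.92 and 150.57 counts and 16.02 and 9.99 TPM, and all histone genes 432.78 and 343.33 counts.

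The polyadenylation hexamer AATAAA was searched for in the last 40 bases of each protein-coding transcript. It was found in 11 of 25 transcripts that ran over 100 bases past a stem-loop, 0 of 23 that ended nearer to it and 4 of 24 with no stem-loop found, against 39.3% of all protein-coding transcripts. Among the extended genes with the hexamer was Hist4h4, which runs 2445 bases past its stem-loop.

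**Figure D2:**
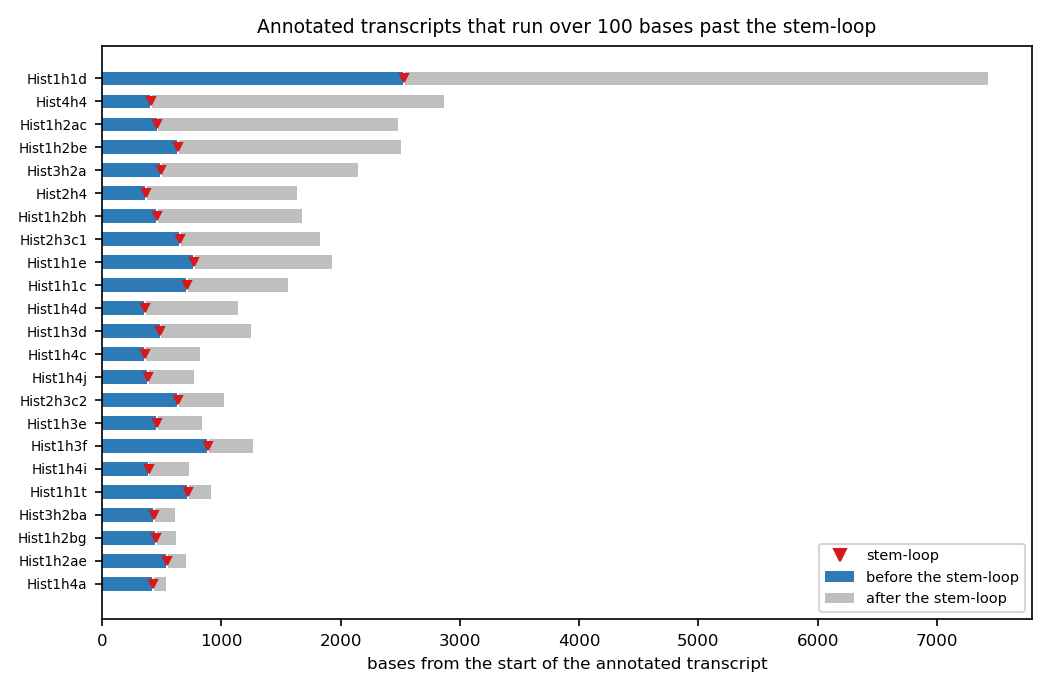
Annotated transcripts of the 23 histone genes that run over 100 bases past their stem-loop, drawn to scale in bases from the transcript start, blue before and grey after the stem-loop (red triangle). Hist1h1d runs furthest past it, by 4884 bases, and Hist1h4a least, by 108 bases.

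Sequences before the start sites were read for elements known from histone promoters, because the genes with the highest levels differed in them. RefSeq windows (GRCm38.p6) of 250 bases before to 50 bases after the start were matched for 61 of the 67 genes, and 3 motifs were searched on both strands. ATTTGCAT, the octamer that Oct proteins bind, was in a window of 14 of the 61 genes (23%) and of 1.97% of all 27025 genes with a window. The octamer was in 7 of 17 H2a and 7 of 16 H2b genes and in none of H1, H3 or H4. Windows of neighbouring H2a and H2b genes can overlap, as those of Hist1h2ae and Hist1h2bg do. The same bases can then count for both genes, so these matches are not all separate. TATAAA was in 35 (57.4%, against 15.7%). CCAAT was in 52 (85.2%, against 41.1%), which took in the matched genes of H1, H2a, H2b and H3 without exception but 3 of 12 of H4. Hist1h2be has a pair of windows, of which 1 holds the octamer, and the other matched genes have 1 each. A match is a description of these letters and not a site in use.

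The last 120 bases before the RefSeq start of the 3 highest H2a genes are shown, with matches on either strand in capitals (ATGCAAAT is the octamer and ATTGG the CCAAT box read from the other strand). They are Hist2h2aa2 (chr3:96240375-96240494, minus strand), Hist2h2ac (chr3:96220881-96221000, minus strand) and Hist3h2a (chr11:58954565-58954684, plus strand).

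Hist2h2aa2: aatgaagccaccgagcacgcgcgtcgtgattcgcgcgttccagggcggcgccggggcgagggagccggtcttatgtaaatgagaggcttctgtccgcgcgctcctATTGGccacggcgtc

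Hist2h2ac: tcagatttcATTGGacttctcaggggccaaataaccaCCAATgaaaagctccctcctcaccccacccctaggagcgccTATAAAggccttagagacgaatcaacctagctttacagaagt

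Hist3h2a: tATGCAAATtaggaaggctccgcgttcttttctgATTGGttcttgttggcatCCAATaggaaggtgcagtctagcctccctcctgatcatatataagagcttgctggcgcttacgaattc

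Hist3h2a has the octamer and a pair of CCAAT boxes in this stretch. Hist2h2ac has a pair of CCAAT boxes and TATAAA here and the octamer further out in its window. Hist2h2aa2 has 1 CCAAT box, and neither the exact octamer nor TATAAA was in its window. Its RefSeq start, next to base 96240375, lies upstream of the M21 transcript start at base 96240276. The window of Hist2h2aa1, the copy whose reads cannot be assigned apart with certainty, holds TATAAA and CCAAT but not the octamer. The median level of the 14 genes with the octamer was 0.458 TPM (0 to 6.65 TPM) and that of the 47 without it 0.315 TPM (0 to 10.7 TPM), with ranges that overlap over most of their length. For CCAAT, the 52 with it had a median of 0.303 TPM, and the 9 without it, which are all H4, had 1.31 TPM.

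Few histone genes had the counts to be compared between the replicates. After TMM scaling of the counts, 1 of the 13 genes with 10 or more counts in both libraries was past 2-fold, beside 7.29% of all genes so compared. It was higher in replicate 2, beside 4.08% of all genes, and 0 were lower past 2-fold, beside 3.21%. With scaling by library size alone the count was 2, beside 7.51% of all genes. The 13 log2 ratios of replicate 2 over replicate 1 ran from -0.94 to 1.08 with a median of -0.16, and the median of all genes compared was 0.0035. The gene past 2-fold was Hist1h1c, with 14 and 26.98 counts and a log2 ratio of 1.08. By the second quantification its log2 ratio was 0.97, just inside 2-fold. Hist2h2ac (0.48), Hist1h4m (0.41), Hist1h1e (0.33) and Hist2h2be (0.29) were the next highest. Of these, Hist2h2ac and Hist1h4m had ratios of -0.15 and -0.10 by the second quantification.

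The lower end was held by H4 genes. Hist1h4c had 20.56 and 10 counts (log2 ratio -0.94), Hist1h4d 20 and 10 (-0.87), Hist2h4 26 and 15 (-0.66), Hist1h4i 19.64 and 12.23 (-0.60) and Hist4h4 16 and 11 (-0.41). That is 5 of the 6 H4 genes compared with a ratio below 0, beside 2 of the 7 genes of other types, and by the second quantification 5 of 6 and 4 of 7. The H4 genes below 0 were not the same by both: Hist4h4, with 96.65 and 135.46 counts, was at 0.57 by the second quantification, and Hist1h4m was below 0 there only. The ratio of the summed counts was -0.74 for H4, -0.42 for H3, -0.25 for H2a, -0.06 for H2b and 0.67 for H1. By the second quantification it was -0.07 for H4, from 275.23 and 244.76 counts, and -0.61 for H4 without Hist4h4. There it was -0.51 for H3, -0.39 for H2a, -0.12 for H2b and 0.39 for H1. The libraries started from 250 ng of RNA in replicate 1 and 500 ng in replicate 2, so the RNA amount and the replicate cannot be told apart. With 1 library on each side these differences have no replicate check.

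The study deposited a second quantification of the same reads, made without aligning them to the genome, which gave a different picture of some genes. Both values come from the same libraries, so they measure how reads were assigned and not the cells. Alignment-free counts summed to 1221.48 and 1055.07 over the 67 genes, 2.00 and 2.25 times the alignment-based sums, beside 1.78 and 1.72 times over all annotated genes. By end class this factor was 1.40 and 1.21 for the short genes, 1.94 and 2.43 for the extended genes and 3.72 and 3.43 for those with no stem-loop found. Without Hist2h2be and Hist1h2bq, whose values follow, the last was 2.04 and 1.67. The factor of the extended genes likewise came largely from a few genes, among them Hist1h1d and Hist4h4, whose values also follow. At 1 TPM in both libraries were 12 histone genes by this quantification, against 51.8% of protein-coding genes.

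In TPM, 18 histone genes reached a mean of 1 by either quantification. Of these, 3 were higher past 2-fold by the alignment-free one, beside 34.4% of protein-coding genes, and 3 were lower past 2-fold, beside 0.243%. Either way this is 6 of 18, beside 34.6%, and 2 of 18, beside 29.0%, with a pseudocount of 1 in place of 0.1. The median log2 ratio of alignment-free over alignment-based TPM was -0.27 for the 18 genes and 0.57 for protein-coding genes, so relative to the latter these histone genes were lower by the alignment-free program. The ratios use TPM + 0.1, which understates those of low genes.

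Higher were Hist4h4 (log2 ratio 2.08), Hist2h2be (1.54) and Hist1h2bq (1.20). Hist4h4 had 16 and 11 counts by the alignment-based and 96.65 and 135.46 by the alignment-free program, and Hist2h2be had 18 and 20 against 99.07 and 108.04. Both have long annotated transcripts of 2863 and 2620 bases. For Hist1h2bq, nearly the whole alignment-free count of 60.42 and 47.21 lay on Hist1h2bq-203, a form annotated as a target of nonsense-mediated decay, which had 2.42 and 0 counts by the alignment-based program. Hist1h2be was alike in this, with 45.41 and 23.36 alignment-free counts on the noncoding form Hist1h2be-203 against 3 and 5.

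Lower were Hist2h2aa2 (-1.13), Hist1h4m (-1.08) and Hist2h2bb (-1.03). The counts of Hist2h2aa2 were 48.41 and 34.53 by the alignment-free program and 53.64 and 44.01 by the other, a smaller gap than that of the TPM values. The effective length, by which a count is divided to give TPM, was longer by the alignment-free program. In replicates 1 and 2 it was 1.18 and 1.11 times as long for Hist2h2aa2 and 1.34 and 1.23 times for Hist1h4m. For Hist2h2bb, which had 0 by both programs in replicate 1, it was 1.26 times as long in replicate 2. For the longer Hist3h2a it was 1.03 and 1.01 times as long. TPM is also scaled to a fixed sum, and alignment-free counts over all annotated genes were 1.78 and 1.72 times the alignment-based ones. How much of the TPM gaps each of these makes up was not tested.

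Below 1 TPM by both quantifications, the widest gaps were those of Hist1h2bh (0 in both libraries against 22.74 and 21.23 alignment-free counts, log2 ratio 2.73) and Hist1h1d (5 and 3.02 against 131.15 and 143.49, 2.60). Hist1h4f (0 against 2 and 3 counts, 2.54) and Hist1h2ah (0 against 1.71 and 2.26, 2.19) followed, with at most 3 alignment-free counts in a library. On the lower side Hist1h2br had a ratio of -1.89. Hist1h2ai, which was above 1 TPM by the alignment-based program, had one of -0.88. Hist1h2br had 1.26 counts in replicate 2 by the alignment-based program and none by the other, and 89.5% of its 31-base stretches are also in Hist1h2bq. The share of 31-base stretches found in no other histone gene had a median of 77.8% in the extended genes, 37.0% in the short ones and 14.1% in those with no stem-loop found.

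**Figure D3:**
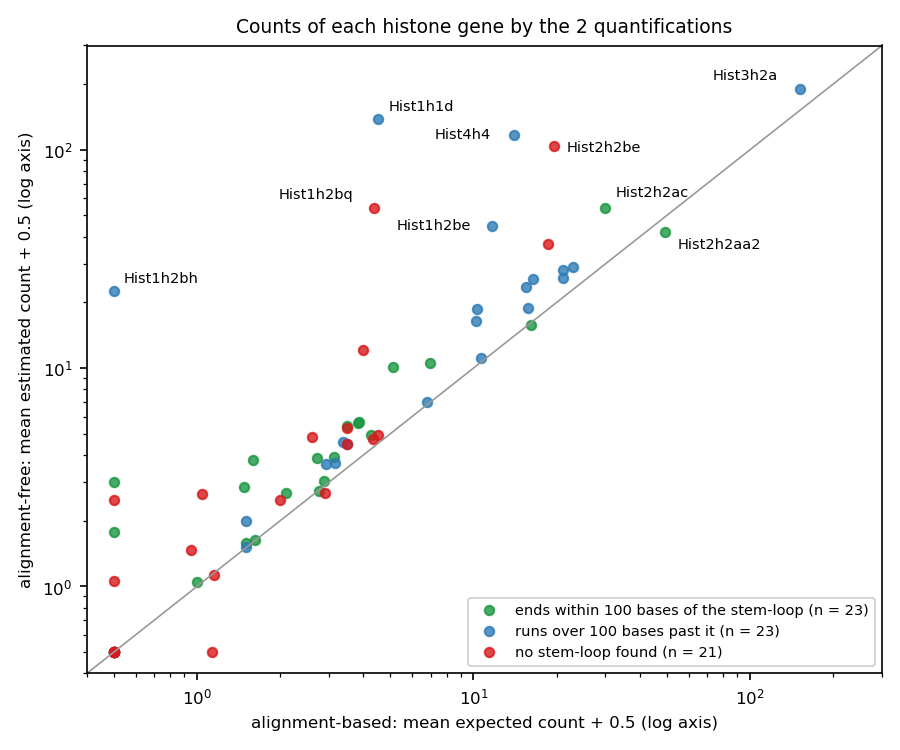
Mean count of each of the 67 histone genes over the 2 libraries by the alignment-based (x axis) and alignment-free (y axis) quantification, each plus 0.5 on log axes, coloured by how the annotated transcript ends. The diagonal marks equal counts. Hist1h1d, Hist4h4, Hist2h2be, Hist1h2bq and Hist1h2bh lie far above it, and Hist2h2aa2 lies below it.

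The genes that make, process and carry histones were set beside their targets. A list of 24 genes for the transcription and 3′ processing of histone messages matched 22, of which 18 were at 1 TPM in both libraries, with a median of 4.78 ± 0.216 TPM (SD between library medians). Srrt, a cap-complex partner also called ARS2, had 122.31 and 114.84 TPM, and Hinfp, a transcription factor of H4 genes, had 25.5 and 23.1. Upf1, a helicase needed to degrade histone messages, had 17.51 and 19.67 TPM, and Nelfe, a subunit of the pausing factor NELF, had 20.16 and 16.01. Slbp had 13.37 and 11.26 TPM, and Npat, the coactivator of histone genes, 1.57 and 1.90. The U7 snRNP proteins Lsm10 and Lsm11 had 6.10 and 4.36 and 0.64 and 0.76 TPM, while the annotated U7 gene Rnu7 was at 0. Rnu7 has 62 bases and the libraries a size range of 250 to 400 bases, so that 0 gives no measure of its level. Of the 20 compared between replicates, 2 were lower in replicate 2 past 2-fold, Coil (log2 ratio -1.24) and Casp8ap2 (-1.08), and 0 were higher, beside 3.21% of all genes lower and 4.08% higher.

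Of 11 replication-independent histone genes, 6 were at 1 TPM in both libraries and the median was 1.49 ± 0.424 TPM. H3f3b had 110.61 and 83.34 TPM, H2afy, which makes macroH2A1, 70.84 and 72.01, H2afz 16.53 and 23.22 and H3f3a 17.87 and 14.79. The lowest, H1fx, was at 0. Of the 8 compared between replicates, 1 was higher in replicate 2 past 2-fold, Cenpa, the centromeric H3 (32 and 76 counts, log2 ratio 1.38). That stands beside 4.08% of all genes, and 0 were lower, beside 3.21%. H3f3b alone was above the sum of the 67 replication-dependent genes, which was 68.21 and 57.5 TPM. Of 18 histone chaperones and import factors, 16 were at 1 TPM in both, with a median of 10.7 ± 1.31 TPM. Atrx and Daxx, which load H3.3, had 153.28 and 116.15 and 105.08 and 126.42 TPM. The assembly proteins Nap1l4 and Npm1 had 54.09 and 33.19 and 26.01 and 24.82. Asf1b, a chaperone tied to dividing cells, was the lowest at 0.18 and 0.45 TPM.

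Of 20 S-phase genes, 11 were at 1 TPM in both libraries, with a median of 1.44 ± 0.605 TPM. Pcna, the sliding clamp of DNA polymerases, had 14.61 and 23.18 TPM, Pola1 8.25 and 6.86, Cdt1 5.22 and 6.71 and Cdk2 5.86 and 4.46, while Cdc6 was the lowest at 0.16 and 0.11. Between the replicates 5 of 17 were lower past 2-fold in replicate 2, among them the helicase subunits Mcm5 (61 and 13 counts) and Mcm6 (111 and 39), and 0 were higher, beside 3.21% of all genes lower and 4.08% higher. The S-phase genes and the H4 genes thus both included lower counts in replicate 2, and whether these are linked was not tested. Macrophage markers were lower in replicate 2 as well: 6 of 8 had a log2 ratio below 0. Their median was -0.47, beside 0.0035 for all genes compared. Lower past 2-fold were 2, Itgam (2189.90 and 637 counts, -1.65) and Adgre1 (16807 and 6321 counts, -1.28), beside 3.21% of all genes. None was higher past 2-fold, beside 4.08%. Whether the lower macrophage markers are linked to the lower H4 and S-phase counts was not tested.

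**Figure D4:**
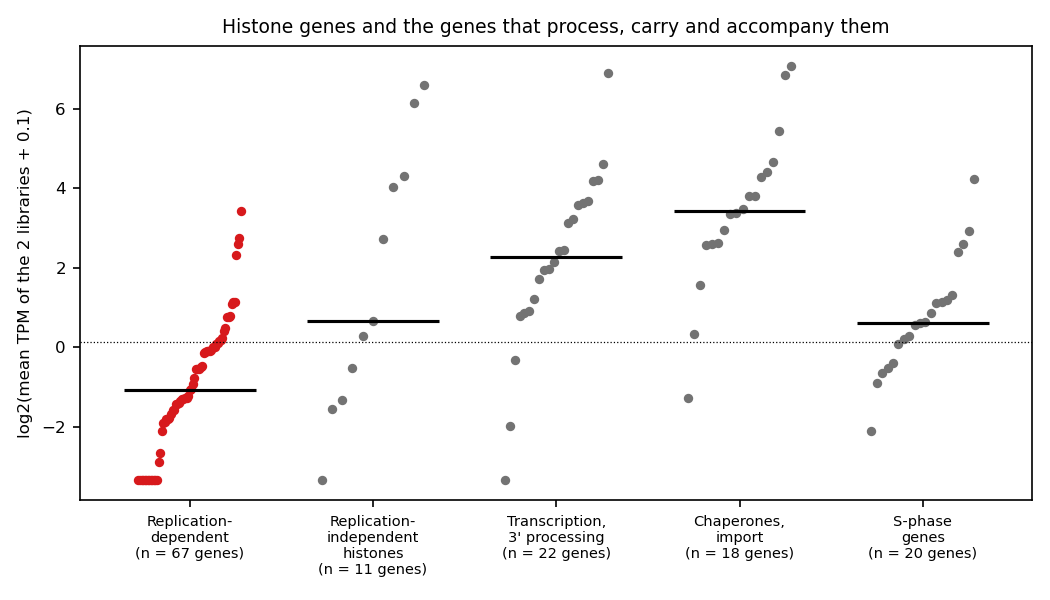
Mean level of each gene as log2(mean TPM + 0.1) for the 67 replication-dependent histone genes (red) and 4 lists of related genes (grey), 1 point per gene in order of level, with a bar at each list's median and a dotted line at 1 TPM. The histone genes have the lowest median, and the list of chaperones and import factors the highest.

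The labelled cell type was checked against its markers. The 8 macrophage markers were at 1 TPM in both libraries, with a median of 89.6 TPM. Of 8 markers of proliferating cells, 2 were at that level, Mki67 with 69.25 and 94.55 TPM and Top2a with 2.42 and 2.05, and Cdk1 had 0.57 and 0.57. These levels depended on the program. By the alignment-free one Cdk1 had 10.69 and 11.05 TPM and Mki67 55.05 and 74.62. The median of the 8 markers was 1.63 TPM there against 0.373 TPM, beside 1.42 against 0.29 TPM for all protein-coding genes. Markers of erythroid precursors summed to 29.13 and 11.36 counts, mostly Alas2, those of B cells to 3 and 1, those of neutrophil precursors to 2 and 3 and those of fibroblasts to 53 and 87. Of the 6 markers of neutrophil precursors 4 were at 0 in both libraries, among them Elane and Mpo. By the alignment-free program the median levels were 0 TPM for markers of erythroid precursors, 0.0588 for B cells, 0.0857 for neutrophil precursors and 0.763 for fibroblasts. Above 1 TPM in both libraries there were Alas2 (9.77 and 5.06), Ms4a1 (1.31 and 1.53), Mpo (1.23 and 1.04) and Col1a1 (1.41 and 1.54).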

How the data were processed

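Chromatin-fraction RNA of 1 group was measured in 2 libraries, and the genes and lists described here were chosen with earlier results of these data known. Per the labels' description files, reads were aligned to the mm10 transcriptome with GENCODE M21 (alignment-based) or used directly (alignment-free). No source used here states the programs, their versions or the strand setting. The column names are those of RSEM and kallisto, per the file headers. The deposited expected counts, effective lengths and posterior SDs of the gene table were used as given, and the authors scaled the TPM values to a fixed sum over all entries. The deposited estimated counts and TPM values of the alignment-free transcript table were summed per gene here, and 86 annotated genes lacked a row there.

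Counts were rounded and scaled by TMM (edgeR 4.0.16) only for the ratio between replicates, in genes with 10 or more counts in both libraries. The ratio between quantifications used log2(TPM + 0.1). With 1 group no test was made. Depth was 18388793 and 17640464 expected counts on annotated genes. Alternatives were the TPM limit, the scaling (DESeq2 1.42.0), count minimum, pseudocount and leaving out each library. The steps were tested on simulated data. Named were, per histone type, the 4 highest genes and the lowest, the 5 with the largest ratio each way between replicates and between quantifications, those with a posterior SD over 10% at a mean of 10 counts, and per list the 4 highest and the lowest. Others named (among them Hist1h2be, Slbp, Lsm10, Lsm11, Npat, Coil, Casp8ap2, Cenpa, Mcm5 and Mcm6) were chosen after their values were seen. Zcchc6 and Zcchc11 matched no annotated symbol. Identity between the proteins was not analysed here.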

Additional observations from a re-analysis of the deposited data

How the results depend on the processing

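The number of histone genes at 1 TPM in both libraries was 9, against 40.1% of all protein-coding genes. It was 21 at a limit of 0.5 TPM (44.8% of protein-coding genes) and 4 at 2 TPM (34.3%). When TPM was rescaled to protein-coding genes it was 27 (48.2%). From 1 library alone it was 21 in replicate 1 (42.2%) and 11 in replicate 2 (41.5%). The median level of 0.375 TPM (0.29 for all protein-coding genes) became 0.465 by the alignment-free quantification (1.42 for all of them). The histone median was thus above that of all protein-coding genes by the alignment-based program and below it by the other. It became 1.34 TPM rescaled to protein-coding genes (1.08) and 1.23 among genes with 10 or more counts in each library (6.88 for all such genes). It was 0.315 TPM without the genes that overlap another gene, an alternative added after the data were seen. From 1 library alone it was 0.36 TPM in replicate 1 (0.29) and 0.41 TPM in replicate 2 (0.27). The 1 gene past 2-fold between replicates (7.29% of all genes compared) became 2 with library-size scaling (7.51%) and 27 with no count minimum (28.6%). It became 0 with a minimum of 50 counts (4.29%), 2 by the alignment-free counts (4.68%) and 5 at 1.5-fold (24.1%). The 6 genes past 2-fold between quantifications (34.6% of genes) became 2 with a pseudocount of 1 (29.0%) and 14 with no minimum level (27.8%). From 1 library alone they were 6 in replicate 2 (35.6%) and 7 in replicate 1 (34.5%).

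No paired analysis was possible because there is 1 group. The values without Hist3h2a, without Hist2h2be and Hist1h2bq and without Hist4h4 were also added after the data were seen. Counts limit these results: with a median of 2.67 counts per gene, 1 read moves a gene by a large part of its level, and genes with shared sequence or an overlapping gene carry an error of assignment beside it.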

Other observations

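The stem-loop match also occurred in 9 protein-coding genes outside the 67. Syncrip, which makes an RNA-binding protein, had 58.52 and 68.48 TPM, and Tmem164 had 32.44 and 26.99. H2afx, whose message is known to exist in a stem-loop form as well as a polyadenylated one, had 10 and 12 counts. Trim17 contains the Hist3h2a transcript, and Nova2 had 4.8 and 4 counts. Gm4869, Gm9507, D430019H16Rik and H2bfm had at most 1 count in a library.

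Of the 18 H2a genes, 17 overlap an annotated microRNA entry on the opposite strand, a type of overlap found in none of the other histone types. The highest expected count of any of these 17 entries was 0.17. In the Hist2 cluster, Hist2h3c1 lies within Gm20634 on the same strand (34.43 and 57.34 counts) and was itself at 0 in both libraries. Hist2h2aa1 overlaps Gm20634 on the same strand and the antisense gene Gm20633 (42.34 and 35.91 counts). In the Hist1 cluster, Hist1h1e and Hist1h2be share 496 bases of annotated transcript on the same strand. A further 3 symbols of the same naming pattern are pseudogenes, with at most 1 count in a library.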
